A study of Rattus norvegicus with 10 samples.

Results

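Interferon-stimulated genes are the transcripts that cells switch on when interferon reaches its receptors, and 29 of them were followed here in the kidney cortex of salt-loaded rats with and without oxonic acid. The members are a list of 29 symbols, of which 27 had a row of that exact name among the 32545 genes of the deposited table. Xaf1 and Oas1b had none and are not analysed here. Of the 27, 26 had a mean of at least 0.5 FPKM (fragments scaled to gene length in kilobases and to library size) over all libraries and were tested with 14508 genes in all, and Ifit1 lay below that level.

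The animals were Dahl salt-sensitive rats (SS/JrHsdMcwi, labelled wildtype), an inbred strain that turns hypertensive when fed salt. All of them first ate 0.4% NaCl, received telemeters at 8 to 9 weeks of age, and then ate 4% NaCl for 3 weeks, either with 2% oxonic acid, an inhibitor of the urate-degrading enzyme uricase (5 libraries), or without it, called vehicle (5 libraries). Males and females entered the study, and the labels give neither the sex of a sample nor whether each library is 1 rat, so the p-values measure only the spread between these samples, which may be technical. Cortex on the low-salt diet alone and cortex treated with interferon were not analysed here, so every level below is from salt-loaded rats.

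Type I interferons bind the receptor pair IFNAR1 and IFNAR2 and, through the kinases JAK1 and TYK2, activate a complex called ISGF3, with STAT2 and IRF9 among its subunits, which binds the interferon-stimulated response element (ISRE) in the promoters of antiviral genes. Interferon gamma instead acts through gamma-activated sites (GAS), with IRF1 as an early target that in turn activates guanylate-binding proteins and antigen presentation genes. In kidney this response is known from viral infection, lupus nephritis and tubular injury, and both tubular cells and resident macrophages can mount it.

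RefSeq promoter sequences (build GRCr8) matched 20 of the 29 symbols, Xaf1 and Oas1b among them. A search of the 250 bases before each start for the ISRE letters, GAAA, any 2 bases and then GAAA, on both strands found a match in 14 of the 20 (70%), against 3.41% of 33469 promoters of the same length. The GAS letters, TTC, any 3 bases and then GAA, were found in 6 of 20 (30%), against 7.67% of all promoters, and in Bst2 the motifs share bases. The lines below show stretches for members that the results turn on, in the direction of the gene, with the ISRE in capitals or, for Irf1, the GAS in capitals.
Ifit3 (chr1:241527267-241527306, plus strand): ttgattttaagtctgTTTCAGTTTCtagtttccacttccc
Irf7 (chr1:205800068-205800107, minus strand): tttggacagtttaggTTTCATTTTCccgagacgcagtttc
Oas1a (chr12:41330416-41330455, plus strand): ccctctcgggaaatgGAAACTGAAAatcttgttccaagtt
Rsad2 (chr6:48788243-48788282, minus strand): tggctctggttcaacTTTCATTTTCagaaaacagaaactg
Gbp2 (chr2:234005681-234005720, plus strand): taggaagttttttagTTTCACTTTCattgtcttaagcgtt
Ifi27 (chr6:128355213-128355252, plus strand): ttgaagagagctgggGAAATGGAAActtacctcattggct
Irf1 (chr10:38417778-38417816, plus strand): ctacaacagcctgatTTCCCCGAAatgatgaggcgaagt
The ISRE of Ifit3 began 44 bases before the start, that of Irf7 69, that of Gbp2 31 and that of Rsad2 147. Ifi27 and Oas1a each held 2 matches, of which 1 is shown. A match describes these letters only and is not a measured binding site. Of the members with a promoter sequence, Cmpk2, Irf1, Irf9, Mx1, Oasl and Stat2 held no ISRE match in this window. For the remaining 9 symbols, Isg15, Rtp4, Usp18, Oas2, Ifit1, Ifit2, Ddx58, Dhx58 and Mx2, no promoter was matched.

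Several members are neighbours on the chromosome. By the positions that the authors deposited, which name no genome build, 15 members lie in 7 clusters with gaps of at most 200 kb: Ifit1, Ifit2 and Ifit3 on chromosome 1 (252894663 to 252946170), Gbp2 with Gbp5 and Ifi44 with Ifi44l on chromosome 2, Mx1 with Mx2 on chromosome 11, Oas1a with Oas2 and Oasl with Oasl2 on chromosome 12, and Rsad2 with Cmpk2 on chromosome 6. The Ifit, Mx, Oas, Oasl and Gbp members belong to families of similar sequence, so reads that match more than 1 of them could be counted for another copy or left out. Irf7 overlaps Phrf1 on the opposite strand, and the sources used here do not settle whether counting used strand.

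The depth was 14536674 to 18508428 reads in genes per library, recovered from the FPKM values. Vehicle library 4 stood apart, with a score of 39.8 on principal component 1, which held 18.2% of the variance, against -13.7 to 15.5 for the other libraries, and it had the lowest share of mitochondrial reads, 9.23% (range over all libraries 9.23% to 13.5%). The numbers in the library names form 3 runs: 3 libraries in run A are all on oxonic acid, run B has 1 on oxonic acid and 3 on vehicle, and run C has 1 and 2. Proximal tubule markers summed to 9940 to 12600 FPKM, and all 13 were tested.

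The comparison of oxonic acid with vehicle addresses the effect of blocking uricase on the salt-loaded cortex, and no member passed its threshold. With limma on log2(FPKM + 0.5), 0 of 26 members had a Benjamini-Hochberg adjusted p under 0.05 (smallest 0.335, Ifi27), where 0 of 14508 genes (0%) did, and limma's voom on the recovered reads also called 0 members and 0 genes. At an unadjusted p under 0.05, 2 members, Ifi27 and Irf1, were lower with oxonic acid (background 5.17% of all genes tested) and 0 were higher (background 4.32%, and 9.49% in either direction). In 0 members did the 5 and 5 libraries separate without overlap, against 0.944% of genes on the higher and 0.965% on the lower side (1.91% in either direction). The members were spread about zero: 14 had a fitted difference below 0 and 12 above (48.2% of all genes tested were below 0), with a median of -0.022 against 0.0053 over all genes tested. That count turned on single libraries, since 23 of 26 were below 0 without oxonic acid library 3, and likewise 23 without vehicle library 4. In a fit blocked on the sample-number runs 22 were below 0. Run A holds no vehicle library, so that fit compares the diets only within runs B and C. Within run B 23 members were lower (median -0.24) and within run C 12 (median 0.023), each with 1 oxonic acid library. With each library's macrophage marker level as a covariate only 3 members were below 0. That marker level (mean centred log2) itself ran from -0.23 to 0.031 with oxonic acid and from -0.0081 to 0.30 with vehicle. The covariate fit therefore cannot separate the diet from the macrophage marker level.

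**Figure D1:**
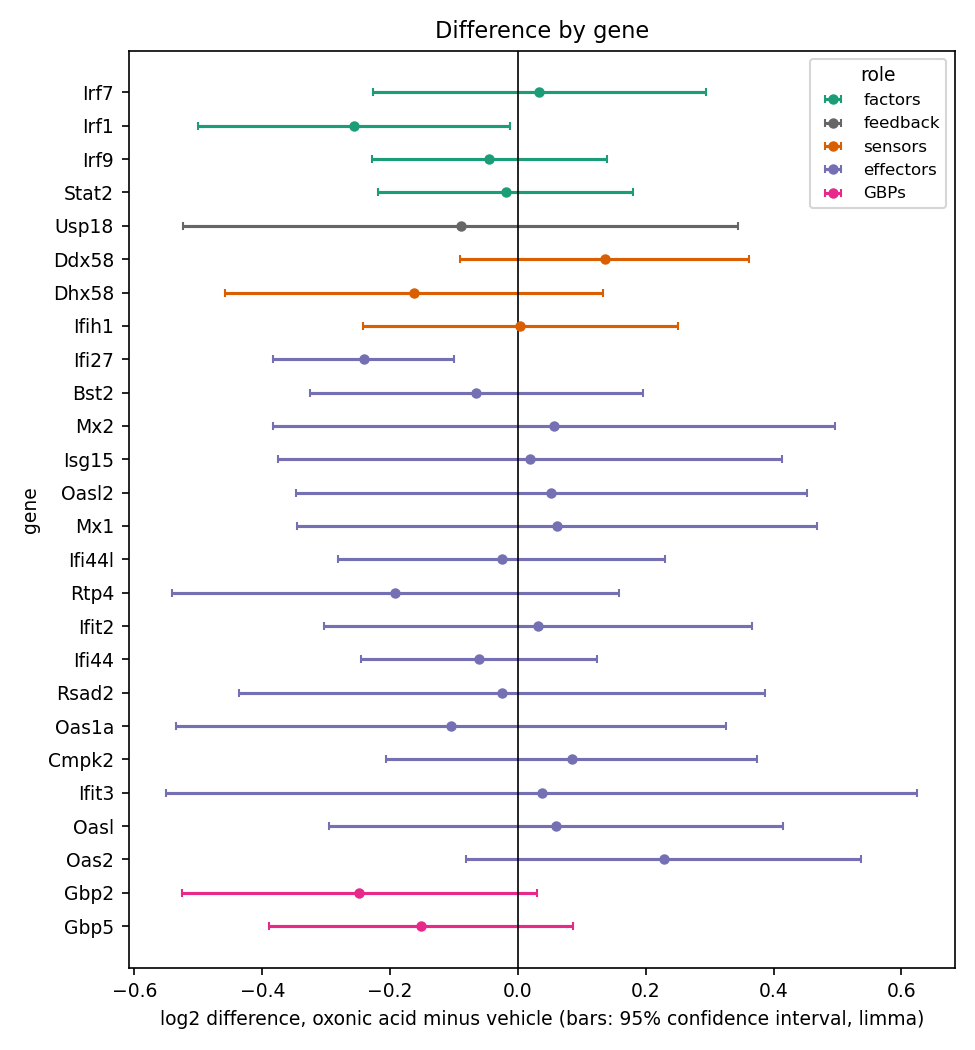
Fitted log2 difference, oxonic acid minus vehicle (x axis, log2(FPKM + 0.5) scale), for the 26 tested genes (y axis), coloured by role; points are limma estimates and bars 95% confidence intervals over 5 and 5 libraries. The intervals of Ifi27 and Irf1 lie below 0 before adjustment over all genes, and the other 24 include 0.

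The members differed widely in level, compared here per length in FPKM. Ifi27, a small hydrophobic protein of mitochondrial and nuclear membranes, was by far the most abundant, at 153.9 to 206.2 FPKM over the 10 libraries. Bst2 (tetherin), which holds budding viruses to the cell surface, followed at 29.6 to 43.4 FPKM, with no library overlapping Ifi27 above it or Irf7 below it, at 13.2 to 21.1 FPKM. From Irf7 down to Oasl each range overlapped its neighbour, so their order was not fixed. Oas2, at 0.424 to 1.02 FPKM, lay below Oasl (1.26 to 2.56 FPKM) in every library, and it rested on 19 to 48 reads per library. Ifit1 was close to silent in the table, with 1, 1, 2, 0 and 1 reads in oxonic acid libraries 1 to 5 and 1, 3, 2, 0 and 4 reads in vehicle libraries 1 to 5, counts too low for a fold.

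The transcription factors of the response came first in the pathway. Irf1, an early interferon gamma target, measured 11.2, 13.1, 13.5, 12.4 and 15.7 FPKM in oxonic acid libraries 1 to 5. In vehicle libraries 1 to 5 Irf1 measured 12.5, 18.3, 16.4, 14.8 and 17.3 FPKM. Of the vehicle libraries 3 lay above every oxonic acid library, and the others fell within the oxonic acid range. The means for Irf1 were 13.2 ± 1.68 and 15.9 ± 2.26 FPKM (SD, n = 5 each), a log2 difference of -0.26 (95% confidence interval -0.50 to -0.012, limma adjusted p = 0.513), which did not pass. The difference in Irf1 was -0.31 within run B and -0.028 within run C, and its unadjusted limma p went from 0.0413 to 0.255 in the fit blocked on runs, and ran from 0.00638 to 0.102 as single libraries were left out.

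Irf7, the factor that amplifies type I interferon production, showed no such offset. Irf7 measured 17.4, 13.2, 21.1, 15.2 and 13.7 with oxonic acid, and the vehicle values were 16.7, 15.9, 16.6, 13.95 and 14.5 FPKM. The highest and the lowest of the 10 values were both in oxonic acid libraries, so the vehicle range lay inside the oxonic acid range. Its log2 difference was 0.034 (95% confidence interval -0.23 to 0.29, limma adjusted p = 0.941).

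The ISGF3 subunits Stat2 and Irf9 varied little. Stat2 measured 13.1, 11.3, 11.8, 12.1 and 10.6 with oxonic acid, and the vehicle values were 11.3, 13.4, 13.6, 9.94 and 11.7 FPKM. Vehicle libraries 2 and 3 held its highest values and vehicle library 4 its lowest. The log2 differences were -0.019 (95% confidence interval -0.22 to 0.18) for Stat2 and -0.045 (-0.23 to 0.14) for Irf9, whose values ran from 11.7 to 16.03 FPKM.

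Usp18, the protease that removes ISG15 from proteins and damps receptor signalling, is the negative feedback arm. Usp18 measured 4.21, 2.40, 4.13, 2.51 and 2.64 with oxonic acid, and the vehicle values were 3.82, 3.34, 4.83, 2.45 and 2.62 FPKM. Both groups held high and low libraries, with oxonic acid 1 and 3 and vehicle 1 and 3 the highest, and the log2 difference of -0.089 (95% confidence interval -0.52 to 0.34, limma adjusted p = 0.899) was smaller than the spread within a group, 0.348 on the log2 scale.

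Of the cytoplasmic RNA sensors, Ddx58 (RIG-I) ranged from 8.73 to 12.4 FPKM, Dhx58 (LGP2) from 3.56 to 5.97 FPKM and Ifih1 (MDA5) from 3.36 to 5.15 FPKM. Their log2 differences were 0.14 (SE 0.103), -0.16 (SE 0.134) and 0.0040 (SE 0.112). All 3 were expressed in every library, and none separated the diets.

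Among the effectors, Ifi27 came nearest to the threshold of all members. Ifi27 (chromosome 6, 127327959 to 127334428 in the deposited coordinates) measured 167.2, 156.7, 175.0, 153.9 and 163.5 FPKM in oxonic acid libraries 1 to 5. With vehicle it measured 170.3, 203.2, 203.6, 206.2 and 183.7 FPKM. Only vehicle library 1 fell within the oxonic acid range, and only oxonic acid library 3 reached the vehicle range. The means were 163.3 ± 8.42 and 193.4 ± 15.7 FPKM (SD, n = 5 each), a log2 difference of -0.24 (95% confidence interval -0.38 to -0.10), a fold of 0.846, with an unadjusted limma p of 0.0032 that became 0.335 after adjustment and did not pass. The difference was as large within the sample-number runs, -0.32 in run B (1 oxonic acid and 3 vehicle libraries) and -0.25 in run C (1 and 2), and was -0.22 without vehicle library 4. In the fit with the macrophage covariate it was -0.16 (limma adjusted p = 0.526).

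The best known antiviral effectors had smaller differences and wider intervals. Isg15, the ubiquitin-like modifier, measured 9.15, 5.24, 8.43, 7.03 and 4.62 with oxonic acid, and the vehicle values were 6.87, 6.54, 8.22, 5.20 and 6.41 FPKM. Mx1, a dynamin-like GTPase that blocks viral ribonucleoproteins, measured 7.71, 4.94, 7.83, 5.17 and 5.35 with oxonic acid, and the vehicle values were 5.75, 7.14, 7.62, 3.85 and 5.42 FPKM. In both genes the 5 oxonic acid libraries split into high values in libraries 1 and 3 and lower ones in libraries 2 and 5, and vehicle libraries 3 and 4 were the highest and the lowest of their group. The log2 differences were 0.020 (95% confidence interval -0.37 to 0.41) for Isg15 and 0.062 (-0.35 to 0.47) for Mx1 (limma adjusted p 0.981 and 0.931).

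**Figure D2:**
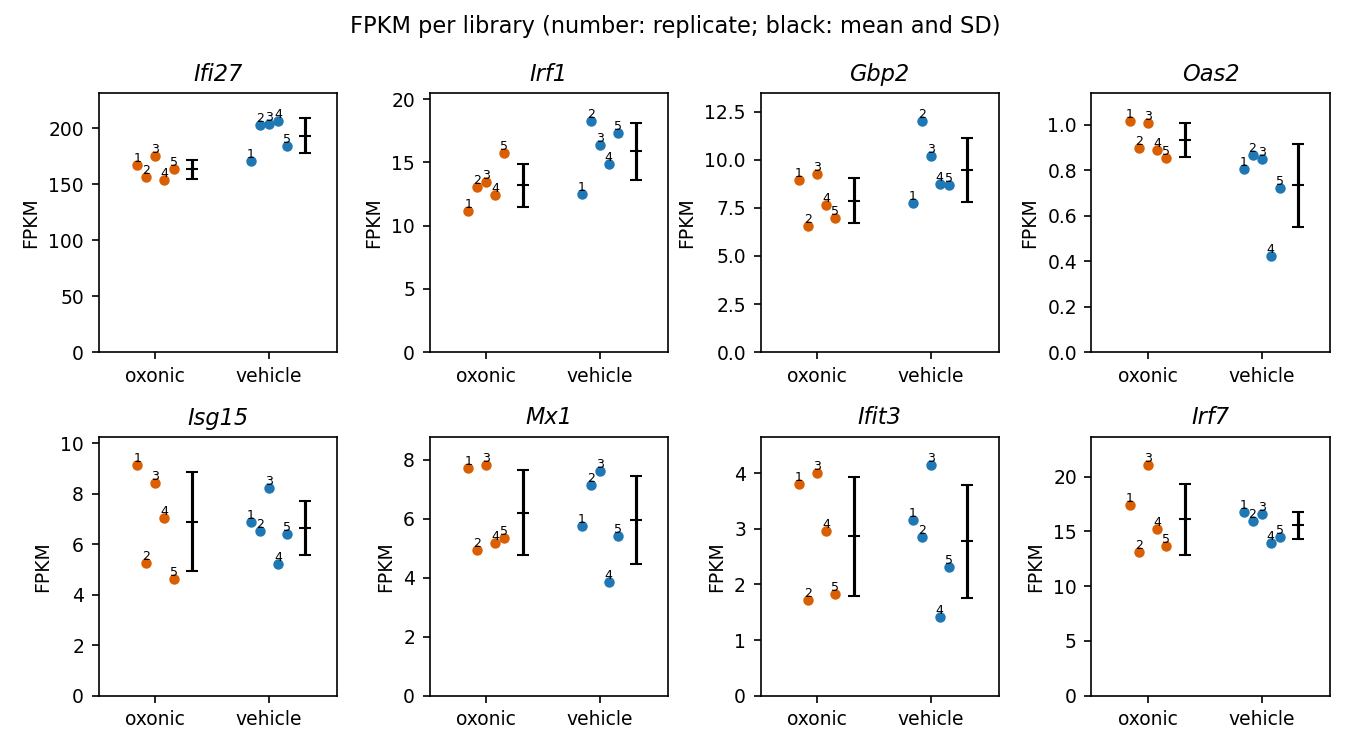
FPKM (y axes, from 0) of 8 members in the 5 oxonic acid and 5 vehicle libraries (x axes); each point is a library with its replicate number, and the black marks are the mean and SD. Ifi27 and Irf1 are offset between the groups with some overlap, whereas for Isg15 and Irf7 the oxonic acid libraries span the whole range of the vehicle libraries.

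Ifit3, a tetratricopeptide protein that binds viral RNA complexes, had the widest swing of the tested members. It measured 3.80, 1.73, 4.00, 2.97 and 1.83 with oxonic acid, and the vehicle values were 3.16, 2.85, 4.15, 1.41 and 2.31 FPKM. The highest library was 2.96 times the lowest, on 44 to 137 reads, and its within-group SD was 0.480 on the log2 scale. Its neighbour Ifit2 ran from 3.45 to 5.81 FPKM. The log2 differences were 0.037 for Ifit3 (95% confidence interval -0.55 to 0.62) and 0.031 for Ifit2 (-0.30 to 0.37).

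The oligoadenylate synthetases make the second messenger that activates RNase L. Oas1a measured 3.81, 2.17, 3.49, 2.54 and 2.17 with oxonic acid, and the vehicle values were 3.23, 3.01, 4.62, 2.15 and 2.53 FPKM, so the vehicle range enclosed the oxonic acid range. Its log2 difference was -0.10 (95% confidence interval -0.53 to 0.33). Oas2 measured 1.02, 0.899, 1.01, 0.887 and 0.853 FPKM with oxonic acid, and 0.806, 0.869, 0.848, 0.424 and 0.724 FPKM in the vehicle group. Only vehicle library 2 reached the oxonic acid range. Oas2 had the most positive fitted difference of the 26 members, 0.23 (95% confidence interval -0.081 to 0.54, limma adjusted p = 0.611). That value was 0.13 without vehicle library 4, in which Oas2 was at 0.424 FPKM, and with the pseudocount lowered to 0.1 it was 0.34. The Oas-like genes Oasl and Oasl2, the latter at 3.53 to 7.77 FPKM, had differences of 0.059 and 0.052.

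Bst2 measured 43.4, 29.6, 41.8, 30.9 and 33.3 with oxonic acid, and the vehicle values were 31.4, 41.9, 35.2, 37.9 and 39.7 FPKM. Its values again split the oxonic acid group, with libraries 1 and 3 high, and the log2 difference was -0.065 (95% confidence interval -0.33 to 0.20, limma adjusted p = 0.876). The remaining effectors Mx2, Ifi44l, Ifi44, Rtp4, Rsad2 and Cmpk2 had log2 differences between -0.19 (Rtp4, SE 0.159) and 0.084 (Cmpk2, SE 0.132), with limma adjusted p of 0.713 or more. Rsad2 (viperin) and Cmpk2, which work together to make a chain-terminating nucleotide and lie side by side, both lay between 2.13 and 5.23 FPKM. Over the 16 tested effectors, 9 had a difference above 0 and 7 below, with a median of 0.025.

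The guanylate-binding proteins, GTPases that attack membranes around microbes and that respond strongly to interferon gamma, both had differences below 0 without passing. Gbp2 measured 8.93, 6.58, 9.25, 7.64 and 6.98 with oxonic acid, and the vehicle values were 7.73, 12.0, 10.2, 8.76 and 8.69 FPKM. Of the vehicle libraries 2 lay above every oxonic acid library, and 3 oxonic acid libraries lay below every vehicle library. The log2 differences were -0.25 for Gbp2 (95% confidence interval -0.52 to 0.029, limma adjusted p = 0.557) and -0.15 for Gbp5 (-0.39 to 0.086, adjusted p = 0.655). In the fit with the macrophage covariate, which cannot separate the diet from the macrophage level, the difference for Gbp2 was 0.083.

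The members varied together between libraries. Over the 10 libraries the median Pearson correlation between pairs of the 26 members was 0.55, and 0.592 between pairs of the 16 effectors, against -0.00092 between pairs of 1500 genes taken at even steps through the tested genes. These are descriptions over 10 points that share library depth and scaling. Of the 26 members 24 had their highest value in oxonic acid libraries 1 or 3 or vehicle libraries 2 or 3, libraries singled out after their values were seen, and 13 had their lowest in vehicle library 4. The member level, the mean of each member's log2(FPKM + 0.5) after centring on its own mean, was 0.14, -0.18, 0.20, -0.11 and -0.13 in oxonic acid libraries 1 to 5. In vehicle libraries 1 to 5 that level was -0.020, 0.16, 0.24, -0.28 and -0.014. The vehicle range enclosed the oxonic acid range. Over the 10 libraries the member level had a Pearson r of 0.656 with the macrophage marker level, 0.512 with the mitochondrial share of reads, 0.36 with reads in genes, -0.497 with principal component 1 and -0.248 with the T and NK cell marker level. The mitochondrial share was 12.6% ± 0.773 with oxonic acid and 11.2% ± 1.14 with vehicle (SD, n = 5 each). The part of these measures in the shared variation was not tested.

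**Figure D3:**
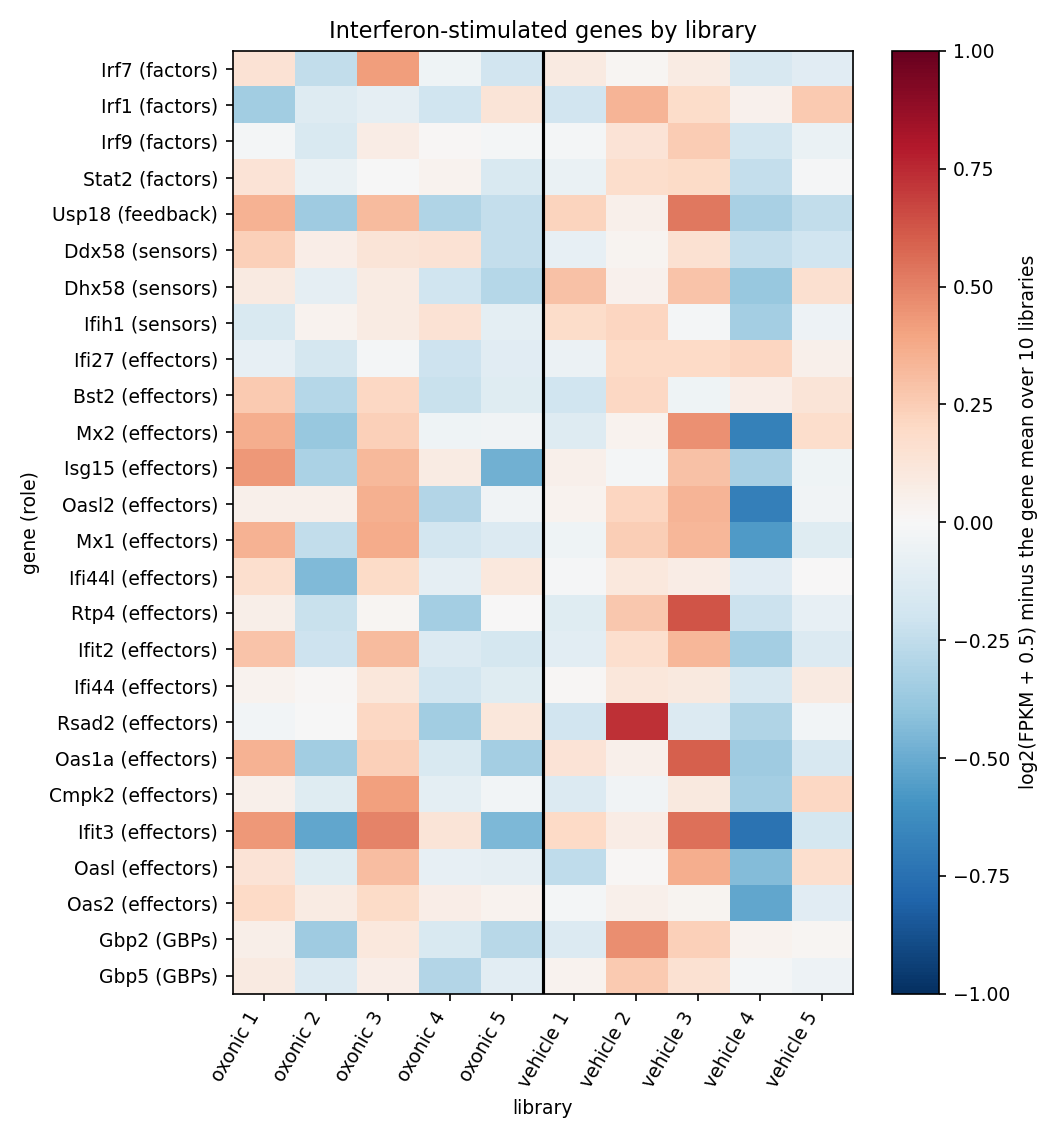
Heat map of the 26 tested genes (rows, with their role) in the 10 libraries (columns, oxonic acid left of the line, vehicle right); colour is log2(FPKM + 0.5) minus the gene's mean over the libraries. The colour follows single columns more than the groups: oxonic acid 1 and 3 and vehicle 3 are mostly red, oxonic acid 2 and vehicle 4 mostly blue, and Ifi27 and Irf1 depart from that pattern.

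Some members moved with the rest much more closely than others. The correlation of a gene with the level of the other 25 members was 0.968 for Mx1, 0.964 for Ifit2, 0.884 for Oas1a and 0.869 for Ifit3. It was 0.258 for Ifi27 and 0.0858 for Irf1, the members with the smallest unadjusted p. Next lowest were Ifih1 at 0.354 and Rsad2 at 0.425, whose unadjusted limma p were 0.97 and 0.89. The median within-group SD was 0.216 on the log2 scale for the members and 0.164 for all genes tested, and the standard error of a difference was correspondingly wider, 0.133 against 0.104 in the median. Ifit3 stood at the 92nd percentile of all genes tested in that SD and Ifi27 at the 18.6th.

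Outside the list, the gene whose values ran most like the member level was Herc6, a ubiquitin ligase for ISG15 in mice and itself an interferon-stimulated gene. Its Pearson r to the level was 0.959 over the 10 libraries, with 2.77 to 5.64 FPKM and a log2 difference of -0.027. Slc44a1, Ndufa4l2, Cask, Plk2, Nuak1 and Cyth4 were also among the genes with the highest r, at 0.894 to 0.939. These were picked from all genes with a mean of at least 1 FPKM, so their r values were selected to be high.

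Upstream, the interferon genes with a row were almost unread. Of 11 interferon ligand genes listed, 8 had a row, and 5 of these (Ifne, Ifna2, Ifna4, Ifna5 and Ifnl3) were at 0 in all 10 libraries. Ifnb1 had at most 1 read, Ifng at most 2 and Ifnk at most 4 in a library, and none of the 8 reached the level for testing. The receptors were present: Ifnar1 ran from 14.1 to 15.9 FPKM, Ifnar2 from 6.07 to 6.89 FPKM, Ifngr1 from 30.9 to 46.6 FPKM and Ifngr2 from 7.54 to 10.4 FPKM. Of the 14 receptor and kinase genes tested 0 passed and 0 had an unadjusted p under 0.05, with 6 above 0 and 8 below. Ifnar1 and Ifnar2 had differences of -0.024 (95% confidence interval -0.13 to 0.085) and -0.031 (-0.16 to 0.094). Ifngr1 and Il10rb, the smallest unadjusted p of this list, differed by -0.16 and -0.13 (limma adjusted p, in that order, 0.537 and 0.591).

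Of 16 genes of nucleic acid sensing and its signalling, 0 passed, 2 were lower and 1 was higher at an unadjusted p under 0.05, and 12 had a difference below 0. Over all genes tested these shares were 5.17% lower, 4.32% higher and 48.2% below 0. The DNA and RNA sensor Zbp1 had a difference of -0.38, the factor Irf5 -0.32 and the endosomal RNA receptor Tlr3 0.29, with limma adjusted p of 0.414, 0.472 and 0.494.

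Other interferon-responsive genes, from lists that do not contain the members, lay lower in larger numbers, again with 0 past the threshold. Of 41 other interferon-stimulated genes tested, 31 had a difference below 0 (median -0.10) and 7 had an unadjusted p under 0.05 on the lower side and 0 on the higher. Of all genes tested 48.2% were below 0, and 5.17% were lower and 4.32% higher at an unadjusted p under 0.05. Without overlap 0.965% of all genes tested were lower. The growth regulator Slfn2 measured 17.0 ± 1.94 FPKM under oxonic acid against a vehicle mean of 22.5 ± 2.33 FPKM (SD, n = 5 each), and the groups did not overlap (log2 difference -0.40, limma adjusted p = 0.333). Ifi27l2b, a relative of Ifi27, measured 46.0 ± 4.57 and 57.7 ± 5.68 FPKM in the same order. Parp9 and Parp12, ADP-ribosyltransferases of the interferon response, had differences of -0.20 and -0.19 with adjusted p of 0.396 and 0.398.

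Of 28 interferon gamma targets tested, 22 had a difference below 0 (median -0.14), and 3 separated the groups without overlap. At an unadjusted p under 0.05, 9 were lower and 0 higher. The shares over all genes tested were 48.2% below 0, 5.17% lower at an unadjusted p under 0.05 and 0.965% lower without overlap. Tap2, Ubd, Psmb10 and Cxcl11 gave log2 values, oxonic acid minus vehicle, of -0.48, -1.03, -0.42 and -0.41, where limma's adjusted p was 0.0890, 0.327, 0.333 and 0.388. No test compared these lists with the members, and the lists were drawn up with earlier results of these data known.

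Markers of immune cells were mostly lower with oxonic acid, without passing. Of 16 macrophage markers tested 14 had a difference below 0, 6 of them at an unadjusted p under 0.05, with 0 past the threshold. Mrc1 and Tyrobp were lower without overlap of the groups. Of all genes tested 48.2% were below 0, and 5.17% were lower and 4.32% higher at an unadjusted p under 0.05. Without overlap 0.965% of all genes tested were lower. The summed level of the 18 matched macrophage markers was 426 to 534 with oxonic acid, and the vehicle values were 495 to 669 FPKM, and Marco was listed at 0 throughout. For T and NK cells 11 of 15 were below 0, 4 of them at an unadjusted p under 0.05, and 1 was higher at that level. Sums over the 20 matched markers were 44.6 to 48.2 FPKM with oxonic acid and 46.5 to 62.8 FPKM with vehicle. Cd4 alone averaged 18.7 and 21.3 FPKM in that order, so 1 gene weighed heavily in these sums. The T cell receptor subunit Cd3e had a log2 difference of -0.65 and the costimulatory receptor Cd28 one of 0.49 (limma adjusted p 0.333 and 0.414). Of 7 tested markers of plasmacytoid dendritic cells, specialised producers of type I interferon, 5 were below 0 and 0 had an unadjusted p under 0.05. That list shares Bst2 with the members and Irf8, Tlr7 and Tlr9 with the sensing list, and its markers Siglech, Spib and Ly6d lay below the level for testing, at 0.448 FPKM or less in every library. The 7 B and plasma cell markers and 7 of 8 neutrophil markers lay below the level for testing. In bulk cortex fewer cells of a type and less RNA per cell cannot be told apart. The part of these cells in the values of Irf1 was not tested. In the covariate fit, which cannot separate the diet from the macrophage level, Irf1 had a difference of -0.23 (limma adjusted p = 0.619).

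**Figure D4:**
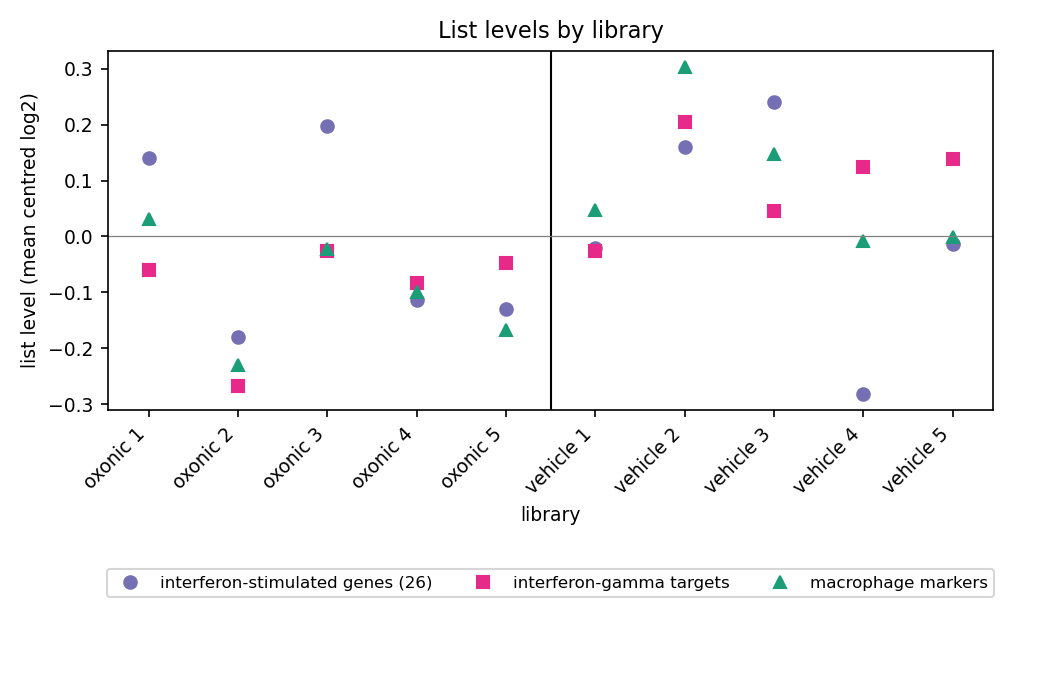
List level (y axis, mean of log2(FPKM + 0.5) centred per gene) in each library (x axis, oxonic acid left of the line, vehicle right) for the 26 interferon-stimulated genes, the interferon gamma targets and the macrophage markers. The interferon-stimulated genes run from -0.18 to 0.20 with oxonic acid and from -0.28 to 0.24 with vehicle; in vehicle library 4 they are lowest while the interferon gamma targets stand at 0.12.

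Markers of other compartments gave the setting. Of 11 endothelial markers tested 9 had a difference above 0 and of 13 proximal tubule markers 11 did. All 9 distal nephron markers and 5 of 6 podocyte markers were above 0, and 13 of 14 tubular injury markers were below 0 (median -0.63). None of these lists had a gene past the threshold in limma's test, where 2, 0, 3, 0 and 10 genes had an unadjusted p under 0.05 in the order named. Over all genes tested 9.49% had such a p in either direction, and 48.2% had a difference below 0.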

How the data were processed

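Poly-A selected RNA of kidney cortex was sequenced on Illumina instruments, per the labels' protocols; tools named in the submitters' processing notes are featureCounts 1.5.0-p3, StringTie 1.3.3b, HISAT2 2.0.5 and fastp; no genome build is given there. The deposited table holds FPKM that the authors computed per gene and library. FPKM times gene length, divided by 1 constant per library, gave whole reads within 0.01 for 100% of values, and these reads gave the depth. Table columns were matched to samples by library name. Genes with a mean of at least 0.5 FPKM were tested on log2(FPKM + 0.5) with limma 3.58.1 (mean-variance trend, R 4.3.3). Tests were two-sided, p-values were adjusted over all genes by Benjamini-Hochberg, and 0.05 was the threshold; the pseudocount understates changes of low genes. The procedure was tested on simulated data. FPKM is a relative measure.

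The members and lists were chosen with earlier results of these data known. Values per library are given for members with an unadjusted p under 0.05 and for Isg15, Ifit1, Ifit3, Mx1, Oas1a, Irf7, Irf1, Stat2, Usp18, Bst2 and Gbp2, and for Oas2, chosen after its values were seen; from the pathway lists up to 4 genes with an unadjusted p under 0.05 by order of p are named (otherwise the 2 smallest), with fixed receptors, plus the 8 genes most like the member level; some genes that this rule names are not reported here. Alternatives were other pseudocounts, filters, scalings, voom, library weights, blocks, a macrophage covariate and leaving out each library. Figures used matplotlib 3.10.9.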

Additional observations from a re-analysis of the deposited data

Results flagged for a closer look

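In 2 of 54 sets of 5 libraries examined (26 genes and their level in each group) 1 library lay far from the other 4, by the gap to its nearest neighbour as a share of the whole range on the log2 scale; chance flags about 1 set in 20. For Rsad2 the vehicle library 2, at 5.23 FPKM, had a gap of 0.735 of the vehicle range. For Oas2 the vehicle library 4, at 0.424 FPKM on 19 reads, had a gap of 0.714 of the vehicle range.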

How the results depend on the processing

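No member passed the threshold under any of the 21 alternatives, where the smallest member adjusted p ran from 0.254 to 0.718. Ddx58, Dhx58, Ifi27, Irf1 and Oas2 kept the sign of their difference in every alternative in which they were tested, and the other 21 members changed sign at least once. Library weights gave 1 gene past the threshold (Tap2) and 22 members below 0. Blocking on the sample-number runs compares the diets only within runs B and C. It left 22 members below 0 and 1 lower at an unadjusted p under 0.05. In that fit 971 of 14508 genes had an unadjusted p under 0.05 in either direction. Adding the macrophage level as covariate, the median over members was 0.236, with 3 members below 0. At an unadjusted p under 0.05, 0 members were lower and 4 higher (Mx1, Ifit2, Ddx58 and Oas2), beside 1470 of 14508 genes in either direction. The macrophage level lay mostly lower with oxonic acid, so this fit cannot separate the diet from it. Leaving out each library in turn gave 0 to 1 genes past the threshold. Between 11 and 23 members were below 0 (11 without vehicle library 3, 23 without oxonic acid library 3 or vehicle library 4). In these fits 1 to 3 members were lower and 0 to 1 higher at an unadjusted p under 0.05. The median over members ran from -0.10 to 0.029. The 1 gene past the threshold came without vehicle library 1 and was SNORA3. With single libraries left out, 1013 to 1539 of 14508 genes had an unadjusted p under 0.05 in either direction. Under the other scalings the median of all genes was -0.017 (equal FPKM sums, 16 members below 0) and -0.0052 (reads without the mitochondrial genome, 15 members below 0), and under voom it was -0.029 (17 members below 0). The replicate numbers did not pair the libraries (correlation of same-numbered deviations -0.013 to 0.203, over 0.1 in 1 of 5 pairs, and 1 of 5 oxonic acid libraries correlated best with its own number). With the replicate block 0 genes passed, 2 members were lower at an unadjusted p under 0.05 and the median over members was -0.022. That fit had 1445 of 14508 genes at an unadjusted p under 0.05 in either direction. Low read counts limited Oas2 (19 to 48 reads) and Ifit1 (0 to 4 reads), and Oas2 had no value with the filter at a mean of 1 FPKM.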
